A study of Columba livia with 6 samples.

Results

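The genes described here build the chromosome structures of meiotic prophase: the synaptonemal complex proteins SYCP1, SYCP2 and SYCP3, the axis protein HORMAD1, the recombinase DMC1, the crossover factor MSH4, and the meiotic cohesin subunits STAG3 and REC8. They were chosen by symbol, as every locus whose gene name is 1 of these 8. Of the 8 symbols 6 were found, on 7 of the 34346 loci of the table, because DMC1 names 2 loci. STAG3 and REC8 name no locus.

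The libraries came from the ovaries of 6 female domestic pigeons (Columba livia), 1 ovary per library. The HP ovaries (HP1, HP2 and HP3) came from birds of high egg production performance and the LP ovaries (LP4, LP5 and LP6) from birds of low egg production performance, numbered as in the sample labels. All 6 birds were 2 years old, sexually mature and of 1 genetic background and hatch batch, and they were picked as the extreme layers of a single flock, with no treatment named. Nothing was sorted, so each library holds the RNA of mixed ovarian tissue. The methods name an ovary sample and do not say whether the whole organ was used. In such bulk samples fewer cells of a type and less RNA per cell cannot be told apart.

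In meiotic prophase each chromosome forms a protein axis of cohesin, SYCP2, SYCP3 and HORMAD proteins. Programmed DNA breaks are repaired along this axis by DMC1 from the homologous chromosome, SYCP1 zips the paired axes together, and MSH4 with MSH5 stabilises the joints that become crossovers. In birds, as in mammals, female germ cells enter meiosis before or around hatching. They then arrest as oocytes late in prophase, after these steps, so an adult ovary holds mainly oocytes that have passed them.

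The libraries held between 97875183 and 108669967 counts each. Of 13 germ cell and oocyte markers 10 were found, and FIGLA, ZP3 and ZP4 were not. The summed level of the 10 was 587 to 790 CPM (a locus's counts scaled to library size) in HP ovaries and 520 to 652 CPM in LP ovaries. Ovary HP2 stood apart by the sum of 6 kidney tubule markers, which was 600.4 CPM there, against 71.9 to 113 CPM in the other 5 ovaries. Of that sum 395 CPM came from LRP2, on a merged locus, while AQP2 was close in HP2 (11.1 CPM) and HP1 (9.47 CPM). The chromaffin sum was highest in HP3, at 196 CPM, with LP5 next at 120 CPM. Smooth muscle and fibroblast markers summed to 1321 to 2203 CPM in HP ovaries and 1985 to 4473 CPM in LP ovaries. Of these 7 markers, 4 were lower in HP at an unadjusted p under 0.05, against 3.5% of all loci. Without overlap 1 was lower, against 7.17% of all loci. The sums of every marker list overlapped between groups. Granulosa markers summed to 352 to 840 CPM in HP and 595 to 741 CPM in LP ovaries, theca markers to 46.1 to 71.0 and 54.8 to 87.2 CPM, blood and immune markers to 751 to 1089 and 856 to 1103 CPM, endothelial markers to 363 to 456 and 379 to 605 CPM, chromaffin markers to 73.9 to 196 and 82.9 to 120 CPM, and oviduct markers to 73.7 to 92.0 and 61.5 to 77.7 CPM. Spermatid markers were low, at 3.58 to 5.69 CPM in HP and 3.92 to 6.06 CPM in LP ovaries.

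HORMAD1 was the member that differed most between the groups. Its HORMA-domain protein coats unsynapsed axes, promotes break formation and is stripped off as chromosomes synapse, as known from mouse. It was higher in HP ovaries, 1.95-fold on the group means, while SYCP1, SYCP2, SYCP3, MSH4 and DMC1 overlapped between the groups. With edgeR's quasi-likelihood test, 0 of the 5 tested members passed an adjusted p under 0.05, and DESeq2 and limma also gave 0. Across all 28274 loci tested, 3 passed it (0.0106%). At an unadjusted p under 0.05, 1 of 5 members passed, as 8.24% of all loci did. The same member, HORMAD1, also met a limit of 1 on the log2 ratio of mean FPKM, HP over LP, beside that p. Its ratio of 1.01 was just past this limit, and its edgeR log2 fold change of 0.96 was under 1. Of all loci, 3.11% met both limits in either direction and 2.09% upwards in HP. In 1 of 5 the HP and LP ovaries did not overlap, against 14.6% of all loci. With 5 members, a count of 1 is the least a list can show above 0, and nothing particular to the members is read from it.

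**Figure D1:**
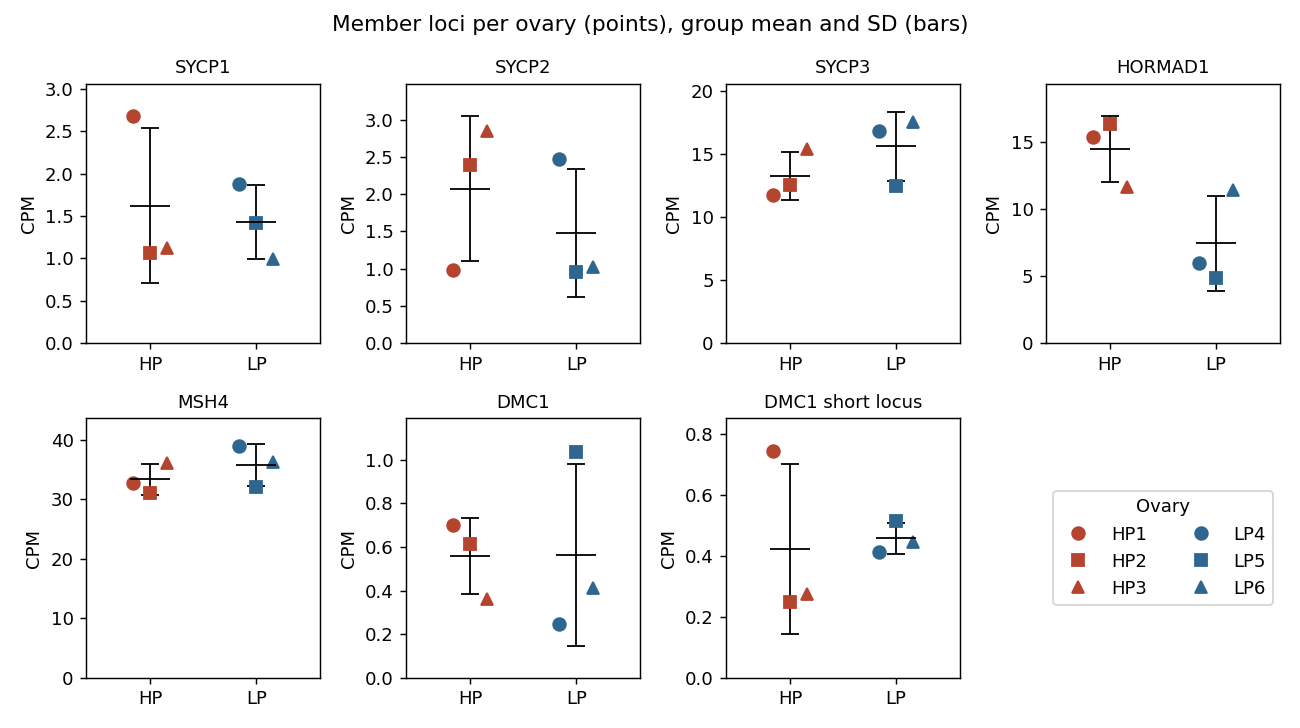
Level of each member locus in CPM (y axis, from 0, scaled per panel) in 3 HP and 3 LP ovaries; points are single ovaries, horizontal bars group means and vertical bars SD (n = 3 each). HORMAD1 lies at 11.7 to 16.4 CPM in HP and 4.83 to 11.5 CPM in LP ovaries, and in the other 6 panels the groups overlap.

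Levels are given here as CPM of each locus, with library sizes scaled by the TMM method, and are compared between ovaries and not between genes. The deposited FPKM values divide by a length that can be read back from the counts, and these lengths were not usable for comparing genes: 449 bases for SYCP2 and 482 bases for SYCP1, but 5727 bases for the shorter DMC1 locus, which spans 493 bases of the genome. Intervals on single counts below cover counting error only and may be too narrow, since reads are not independent molecules. In the HP ovaries the counts also sum to more than the raw reads that the study reported. An exact permutation test of 3 ovaries against 3 cannot give a two-sided p below 0.1.

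SYCP1 forms the transverse filaments that bridge paired axes. The locus (gene18526) lies on the minus strand of NW_004973619.1:1374586-1393777 of the assembly Cliv_1.0, with 5 reference transcripts and no overlapping locus. It reached 2.69, 1.06 and 1.12 CPM in HP1, HP2 and HP3, against 1.88, 1.42 and 0.997 CPM in LP4, LP5 and LP6. HP1 alone lay above all LP ovaries, and the other 2 HP ovaries lay within the LP range. The means were 1.62 ± 0.92 CPM in HP and 1.43 ± 0.44 CPM in LP (SD, n = 3 each), a log2 fold change of 0.18 with a standard error of 0.46 (95% interval −0.91 to 1.28; edgeR p = 0.703, adjusted p = 0.932; exact permutation p = 0.8). Without HP1 the value was −0.39 and without LP6 −0.02, so its sign rested on single ovaries.

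SYCP2 is the larger lateral element protein and recruits SYCP3 to the axis. Its locus (MSTRG.2399, plus strand, NW_004973200.1:4483837-4513505) holds 1 reference transcript and overlaps no other. It had 0.980, 2.40 and 2.85 CPM in HP1, HP2 and HP3, against 2.47, 0.957 and 1.02 CPM in LP4, LP5 and LP6. Both groups thus held ovaries at low and at high levels, with 108, 95 and 109 counts in HP1, LP5 and LP6, and 242, 299 and 240 counts in HP2, HP3 and LP4. The highest counting interval of the low ovaries ended at 1.23 CPM (LP6) and the lowest of the high ovaries began at 2.11 CPM (HP2), and these intervals cover counting error within a library, not differences between birds. The group means, 2.08 ± 0.98 CPM in HP and 1.48 ± 0.86 CPM in LP (SD, n = 3 each), differed by less than the SD of either group (log2 fold change 0.49, standard error 0.54, 95% interval −0.81 to 1.78; edgeR p = 0.400, adjusted p = 0.829; exact permutation p = 0.6). Without LP4 the log2 fold change was 1.08 (adjusted p = 0.602) and without HP1 it was 0.83, while without HP3, LP5 or LP6 it was 0.19, 0.25 and 0.27.

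SYCP3 is the smaller lateral element protein and a standard cytological mark of meiotic axes. The locus (MSTRG.3471, minus strand, NW_004973228.1:1576569-1589443) combines 12 reference and 2 assembled transcripts. It overlaps CHPT1, which lies on the plus strand from 1553870 to 1578933 and held 5969 to 7516 counts in HP and 5365 to 12356 counts in LP ovaries. Whether the counts used the strand is not given in the sources used here, so some SYCP3 counts could belong to CHPT1. SYCP3 had 11.7, 12.6 and 15.4 CPM in HP1, HP2 and HP3, against 16.8, 12.5 and 17.6 CPM in LP4, LP5 and LP6. LP4 and LP6 were above all HP ovaries and LP5 was within their range. The means were 13.2 ± 1.91 CPM in HP and 15.6 ± 2.75 CPM in LP (SD, n = 3 each), with a log2 fold change of −0.24, a standard error of 0.20 and a 95% interval of −0.72 to 0.24 (edgeR p = 0.272, adjusted p = 0.766; exact permutation p = 0.3). It was −0.16 without HP1 and −0.15 without LP6, but −0.36 without HP3 and −0.38 without LP5.

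The HORMAD1 locus (MSTRG.26232, plus strand, NW_004974174.1:288160-295252) holds 7 reference and 3 assembled transcripts and overlaps no other locus. It had 15.4, 16.4 and 11.7 CPM in HP1, HP2 and HP3, against 6.001, 4.83 and 11.5 CPM in LP4, LP5 and LP6. The separation rested on LP4 and LP5, because HP3 and LP6 were level: their counting intervals, 11.02 to 12.3 and 10.8 to 12.1 CPM, overlapped. The means were 14.5 ± 2.48 CPM in HP and 7.43 ± 3.54 CPM in LP (SD, n = 3 each). The log2 fold change was 0.96 with a standard error of 0.35 and a 95% interval of 0.12 to 1.80 (edgeR p = 0.0305, adjusted p = 0.586; exact permutation p = 0.1, the smallest 3 against 3 allow). The difference did not hold after adjustment over all loci.

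No alternative tool, scaling or filter changed the direction for HORMAD1. DESeq2 gave a log2 fold change of 0.97 (adjusted p = 0.186), and limma on log2(FPKM + 1) gave 0.85 (adjusted p = 0.531), both past the unadjusted threshold. Leaving out single ovaries kept the direction but not always the threshold: HORMAD1 no longer passed an unadjusted p under 0.05 without HP1, HP2, LP4 or LP5, with log2 fold changes of 0.92, 0.87, 0.83 and 0.73. It still passed without HP3, at 1.10 (adjusted p = 0.711), and without LP6, at 1.42 (adjusted p = 0.508). Tissue markers also differed between these ovaries. LP4 and LP5, the ovaries with the least HORMAD1, had the highest smooth muscle and fibroblast sums, at 3329 and 4473 CPM, while the LP6 sum was 1985 CPM, inside the HP range. Single markers of that list did not all follow the sum: COL1A1 was highest in LP6, at 511 CPM, against 439 and 463 CPM in LP4 and LP5. The part of these markers in the difference was not tested. HP2, the ovary with the highest kidney marker sum, also had the most HORMAD1, and the part of the kidney markers was likewise not tested.

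**Figure D2:**
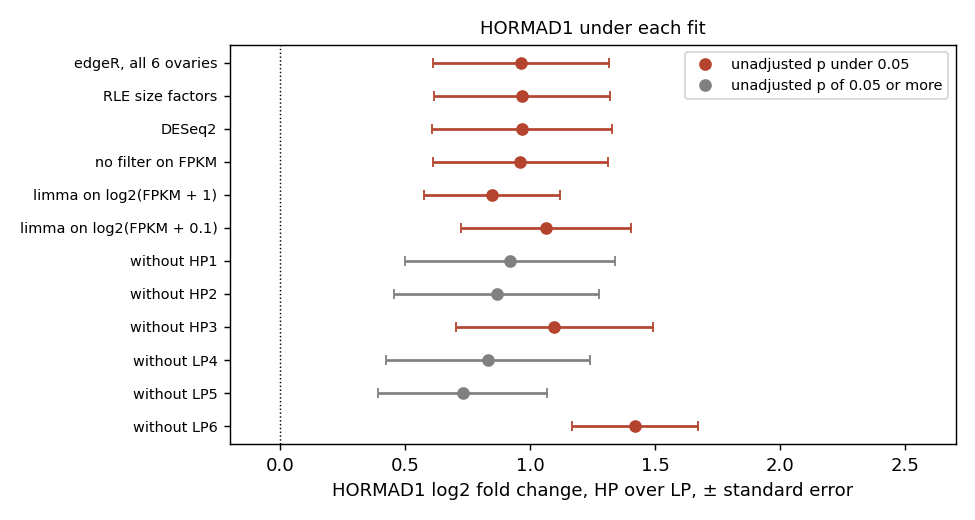
HORMAD1 log2 fold change, HP over LP (x axis), in each fit (rows), with its standard error (bars); red marks an unadjusted p under 0.05. All 12 values lie above 0, from 0.73 without LP5 to 1.42 without LP6, and 4 of the 6 fits that leave out an ovary have a p above the threshold.

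DMC1 is the recombinase that carries out strand exchange only in meiosis. Its main locus (MSTRG.26152, minus strand, NW_004974151.1:760465-789451) holds 6 reference transcripts and overlaps 3 other loci. It had 0.699, 0.614 and 0.362 CPM in HP1, HP2 and HP3, against 0.247, 1.04 and 0.410 CPM in LP4, LP5 and LP6, from 38 to 77 counts in HP and 24 to 103 counts in LP ovaries. The LP ovaries thus included both the lowest and the highest value. Both DMC1 loci lay below the mean FPKM of 0.1 required for testing, at 0.0484 and 0.0770, where the large length behind their FPKM counts against them, and they were fitted only without that filter. The means of 0.558 ± 0.175 CPM in HP and 0.565 ± 0.418 CPM in LP (SD, n = 3 each) gave a log2 fold change of −0.02 with a standard error of 0.59 and a 95% interval of −1.42 to 1.38 (edgeR p = 0.978; exact permutation p = 0.9). The interval leaves room for a change of over 1 log2 unit in either direction. Neither DMC1 locus passed an unadjusted p under 0.05 without the filter, where 7.52% of 34346 loci did.

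The second DMC1 locus (MSTRG.26154, bases 788569 to 789061 of the same scaffold) is an assembled fragment of 493 bases with no strand, inside the first. Its reads cannot be told apart from those of the main locus by the table. It had 0.744, 0.248 and 0.276 CPM in HP1, HP2 and HP3, against 0.412, 0.514 and 0.447 CPM in LP4, LP5 and LP6, with HP1 above and the other HP ovaries below the LP range (log2 fold change −0.11, standard error 0.52; edgeR p = 0.833 without the filter; exact permutation p = 0.5).

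MSH4 had the most counts of the members. It forms a clamp with MSH5 that holds recombination intermediates for crossing over. The locus (MSTRG.19726, minus strand, NW_004973635.1:1434-36785) carries 2 gene names, MSH4 and LOC102093691, because 3 reference and 4 assembled transcripts were merged, so its counts sum both. It had 32.7, 31.2 and 36.2 CPM in HP1, HP2 and HP3, against 38.99, 32.1 and 36.2 CPM in LP4, LP5 and LP6. The groups overlapped, with LP4 highest and HP2 lowest. This comparison had the smallest standard error among the members: the means were 33.4 ± 2.59 CPM in HP and 35.8 ± 3.46 CPM in LP (SD, n = 3 each), with a log2 fold change of −0.10, a standard error of 0.13 and a 95% interval of −0.41 to 0.21 (edgeR p = 0.463, adjusted p = 0.852; exact permutation p = 0.4). Without HP2 and without LP4 it was −0.054 and −0.034, and without HP3 and without LP5 −0.16 and −0.17. MSH5 had 7.02 to 12.5 CPM in HP and 7.51 to 10.9 CPM in LP ovaries (log2 fold change 0.11, standard error 0.27, adjusted p = 0.930).

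STAG3 and REC8 replace the STAG and RAD21 subunits of cohesin on meiotic chromosomes. No locus carries either symbol, but 3 loci are described as partial copies of such genes, and they stand outside the rule. LOC110356654, described as a partial SA-3-like cohesin subunit (NW_004975701.1:2158-7925), had 40, 82 and 52 counts in the HP ovaries against 136, 71 and 79 in the LP ovaries. The groups overlapped through HP2, and the log2 fold change was −0.77 with a standard error of 0.46 (adjusted p = 0.677). LOC110355954, a shorter locus with the same description (NW_004974125.1:3812-5415), had 0, 0 and 13 counts in HP and 19, 6 and 15 counts in LP ovaries. LOC110356505, described as a partial REC8 homolog of 585 bases (NW_004974690.1:60-644), had 2 counts in HP1 and 0 in the other 5 ovaries. The counting intervals of these 0 counts ended at 0.0344 CPM (LP6) to 0.0380 CPM (LP4). By their descriptions these loci are partial copies, and nothing is read from them on the level of whole STAG3 or REC8 transcripts.

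Among the related cohesin subunits, SMC1B, the meiotic SMC subunit, had 14.1, 18.7 and 23.9 CPM in HP1, HP2 and HP3, against 19.4, 12.9 and 11.7 CPM in LP4, LP5 and LP6 (log2 fold change 0.37, standard error 0.28, adjusted p = 0.743). RAD21L1, a meiotic kleisin like REC8, had 0.386 to 1.58 CPM in HP and 0.660 to 0.887 CPM in LP ovaries (adjusted p = 0.891). Neither separated the groups. The general subunits were detected in every ovary: STAG1 had 96.5 to 136 CPM in HP and 95.1 to 97.9 CPM in LP ovaries (log2 fold change 0.32, standard error 0.14, adjusted p = 0.612), STAG2 differed by 0.09 (adjusted p = 0.866) and RAD21 by 0.06 (adjusted p = 0.903) on the log2 scale.

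The members were then set within 72 genes of meiotic prophase and cohesin, of which 60 were found and 54 tested. Here REC8 was taken as found through LOC110356505, the partial copy outside the rule, and was not among the 54 tested. In edgeR's fit 0 of the 54 passed an adjusted p under 0.05, likewise with DESeq2 and limma. At an unadjusted p under 0.05, 3 were higher in HP and 1 was lower, against 4.74% and 3.5% of all loci. The count of 4 was 1 without LP6 and 6 without LP4, and it was 2 without HP1, without HP2 or without HP3. In 7 the HP ovaries lay above all LP ovaries and in 1 below, against 7.38% and 7.17% of all loci. The log2 fold change was above 0 in 39 of 54 genes (72.2%), against 49.0% of all loci, and the median was 0.13 against −0.01. Without any 1 ovary the share above 0 was 64.8% to 72.2%. Without the members themselves it was 36 of 49 (73.5%), with a median of 0.12. Marker lists went both ways. Above 0 were 8 of 10 germ cell and oocyte markers (median 0.18), 6 of 6 kidney tubule (1.73), 5 of 5 chromaffin (0.53) and 3 of 4 oviduct markers (0.17). The others were 2 of 4 blood and immune (−0.13), 1 of 5 granulosa (−0.13) and 0 of 7 smooth muscle and fibroblast markers (−0.92). For endothelium it was 0 of 4 (−0.29), for theca 0 of 2 (−0.31) and for spermatids 0 of 1. The part of these lists in the share was not tested.

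The other genes that passed the unadjusted threshold were SYCP2L, RPA1 and CCDC36, and none of them passed after adjustment. SYCP2L, an oocyte relative of SYCP2 known from mouse, had 20.7, 27.8 and 20.9 CPM in HP1, HP2 and HP3, against 19.5, 12.7 and 10.05 CPM in LP4, LP5 and LP6 (log2 fold change 0.71, standard error 0.28, adjusted p = 0.595). All HP ovaries were above all LP ovaries, though LP4 came close. RPA1, which coats single-stranded DNA in every dividing cell, had 177, 188 and 202 CPM in HP and 168, 139 and 151 CPM in LP ovaries (log2 fold change 0.31, standard error 0.11, adjusted p = 0.586). CCDC36, also called IHO1, binds HORMAD1 in mouse and brings the break machinery to the axis, and it was the gene that went the other way. It had 2.55, 4.013 and 3.45 CPM in HP1, HP2 and HP3, against 7.496, 4.001 and 6.30 CPM in LP4, LP5 and LP6 (log2 fold change −0.83, standard error 0.31, adjusted p = 0.592). HP2 and LP5 were level, and the other LP ovaries lay above all HP ovaries.

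HORMAD1 and CCDC36 thus had fold changes of opposite sign. The ratio of HORMAD1 to CCDC36 counts, taken like the next one after the values were seen and so a description only, was 6.04, 4.08 and 3.38 in HP1, HP2 and HP3, against 0.801, 1.21 and 1.82 in LP4, LP5 and LP6. The CCDC36 locus overlaps 1 other locus, so some of its counts could belong to that locus. HORMAD2, the paralog of HORMAD1, had 0.917, 0.783 and 1.29 CPM in HP1, HP2 and HP3, against 1.76, 1.13 and 1.09 CPM in LP4, LP5 and LP6 (log2 fold change −0.41, standard error 0.34, adjusted p = 0.763), and the groups overlapped. The ratio of HORMAD1 to HORMAD2 counts was 16.8, 20.9 and 9.07 in HP1, HP2 and HP3, against 3.40, 4.28 and 10.5 in LP4, LP5 and LP6, and overlapped through HP3 and LP6. TRIP13, the ATPase that removes HORMAD proteins from the axis, had 46.6 to 71.2 CPM in HP and 43.5 to 47.9 CPM in LP ovaries (log2 fold change 0.32, standard error 0.17, adjusted p = 0.657).

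By role, the synaptonemal complex list held 10 genes, of which 6 were tested and 1 (SYCP2L) was higher at an unadjusted p under 0.05, with a median log2 fold change of 0.14. Of 9 tested genes of the chromosome axis and break formation, 1 (HORMAD1) was higher and 1 (CCDC36) lower, with a median of 0.24. The strand exchange list had 10 tested genes, 1 of them higher (RPA1), and a median of 0.10. No gene passed among 2 of meiotic cohesin, 10 of general cohesin, 7 of crossover formation, 5 of telomere attachment and 5 of meiotic entry and cohesin protection, whose medians lay between −0.0045 and 0.34. HFM1, a crossover helicase below the filter on FPKM, had 2.03, 2.46 and 2.01 CPM in HP1, HP2 and HP3, against 1.43, 1.36 and 0.857 CPM in LP4, LP5 and LP6 when fitted without it (log2 fold change 0.83, standard error 0.30, adjusted p = 0.651). It did not overlap between the groups and passed the unadjusted threshold, which makes 5 of 60 prophase genes without the filter, against 7.52% of all loci. These 60 include the partial REC8 copy, with counts only in HP1, and KASH5, with counts only in LP5.

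**Figure D3:**
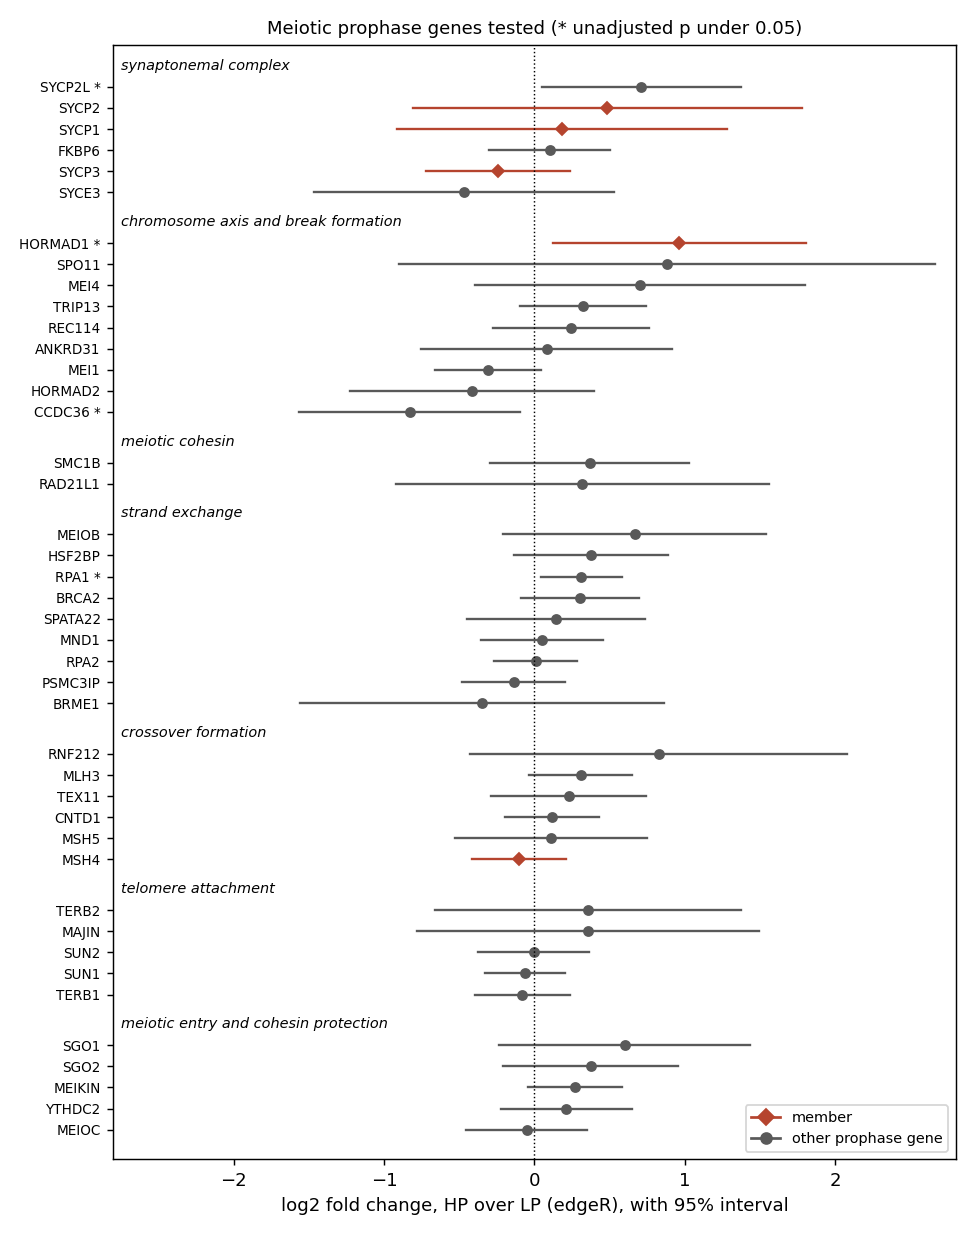
Log2 fold change, HP over LP (x axis), with 95% interval for tested genes of the meiotic lists (rows, grouped by role; the 10 general cohesin genes, among others, are left out); red diamonds are members and asterisks mark an unadjusted p under 0.05. The 4 marked genes are SYCP2L, HORMAD1 and RPA1 to the right of 0 and CCDC36 to the left.

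Germ cells make only part of the RNA of an ovary, so each member was also set against 10 germ cell and oocyte markers of its own ovary, as log2 CPM minus their mean log2 CPM. The markers themselves averaged 0.31 higher in HP than in LP ovaries on the log2 scale. Of the 10, 2 were higher at an unadjusted p under 0.05, TDRD1 (adjusted p = 0.586) and PIWIL1 (adjusted p = 0.584), against 4.74% of all loci. Without overlap 4 were higher in HP, against 7.38% of all loci. On the scale relative to these markers SYCP3 was at −2.20 ± 0.10 in HP and −1.66 ± 0.03 in LP ovaries (SD, n = 3 each), a difference of −0.54 with no overlap (exact permutation p = 0.1). MSH4 was at −0.85 ± 0.20 in HP and −0.45 ± 0.13 in LP ovaries, a difference of −0.41 with no overlap (exact permutation p = 0.1). For SYCP3 the gap between the groups was several times the spread within them, but the share of all loci with such a gap was not computed. In CPM the SYCP3 groups overlapped, and the limit from the overlap with CHPT1 applies here too. All HP values of these 2 members were thus below all LP values on this scale. However, 14% of all loci were also lower in HP without overlap on it. The scale subtracts from each locus the marker mean of its ovary, which was higher in HP only on average. In log2 CPM the marker means were 5.66, 5.96 and 6.11 in HP1, HP2 and HP3, against 5.74, 5.31 and 5.76 in LP4, LP5 and LP6. HP1 thus lay below LP4 and LP6.

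On the scale of the germ cell markers the HORMAD1 mean was still higher in HP, at −2.07 ± 0.44 against −2.81 ± 0.50 in LP ovaries (SD, n = 3 each), but the groups overlapped through HP3 and LP6 (difference 0.74, exact permutation p = 0.2). SYCP1 changed sign to −0.22 (exact permutation p = 0.8), SYCP2 was at 0.18 (p = 0.9), DMC1 at −0.12 (p = 1) and its shorter locus at −0.60 (p = 0.4), all by the exact permutation test. ZAR1, an oocyte marker whose locus is merged with SLC10A4, was at 7.51 CPM in LP5, against 34.4 to 62.6 CPM in the other ovaries. Without it, a choice made after seeing the data, the differences were −0.43 for SYCP3, −0.30 for MSH4 and 0.85 for HORMAD1. NOBOX, another of the markers, lies on a locus merged with ARHGEF5, so its counts sum both genes.

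**Figure D4:**
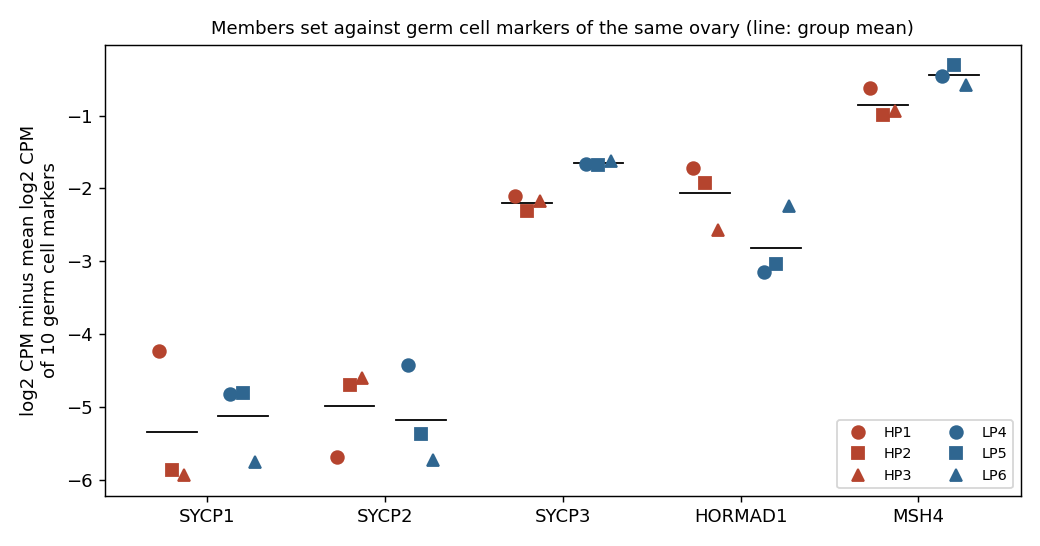
The 5 tested members in each ovary as log2 CPM minus the mean log2 CPM of 10 germ cell markers of the same ovary (y axis); points are single ovaries and lines group means (n = 3 each). SYCP3 (means −2.20 in HP and −1.66 in LP) and MSH4 (−0.85 and −0.45) separate the groups, and SYCP1, SYCP2 and HORMAD1 do not.

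Over the ovaries, each of the 5 tested members was highest in a different one: SYCP1 in HP1, HORMAD1 in HP2, SYCP2 in HP3, MSH4 in LP4 and SYCP3 in LP6. SYCP3 and MSH4 had like profiles all the same, below their own mean log2 CPM in HP1, HP2 and LP5 and above it in HP3, LP4 and LP6. The mean standardised log2 CPM of all 5 tested members was −0.03, −0.18 and 0.36 in HP1, HP2 and HP3. It was 0.58, −0.80 and 0.06 in LP4, LP5 and LP6, so that LP5 was lowest. Among 13901 named loci, the nearest to this mean over the 6 ovaries were EVPL (Pearson r = 0.986), LEPROT (0.985), DBR1 (0.984), the merged locus of MTM1 and MTMR1 (0.980) and ATP8B1 merged with LOC110359223 (0.979). With 6 ovaries and this many loci, 126 reached an r above 0.9, and these values are descriptions. The 7 loci lie on 6 scaffolds. Of the 48 GO terms that the table gives to 6 of the loci, 1 was on more than 1 of them: reciprocal meiotic recombination, on DMC1 and MSH4.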

How the data were processed

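Ribosomal RNA was depleted from total RNA of 6 ovaries and strand-marked paired-end libraries were sequenced; the labels and the methods name different sequencers. Per the methods and the submitters' processing notes, reads were trimmed with cutadapt 1.9, checked with FastQC 0.10.1, mapped to Cliv_1.0 with HISAT2 2.0.4 (the methods add Bowtie2) and assembled with StringTie 1.3.4, and the assemblies were merged. The authors deposited a table of raw whole-number counts and, beside them, FPKM values that they computed with StringTie. In HP1, HP2 and HP3 these counts sum to more than the raw reads that the study reported. They therefore cannot all stand for separate reads. How the counts were made is not given in the sources used here. For 18.8% of 19780 well-counted loci (more than 100 in each ovary) the length implied by count and FPKM exceeded the span of the locus.

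Counts were fitted with edgeR 4.0.16 (R 4.3.3; TMM, quasi-likelihood, two-sided, no covariates) on the 28274 loci that reached 0.1 in mean FPKM, and p-values were adjusted by Benjamini-Hochberg over all of them. Alternatives were DESeq2 1.42.0, RLE size factors, no filter, limma 3.58.1 on log2(FPKM + 1) and log2(FPKM + 0.1), and each ovary left out. The fits were tested on simulated data. Exact permutation tests of log2 CPM used scipy 1.17.1, and 0.5 counts were added before the log for values relative to markers. At 97875183 to 108669967 counts per ovary the precision is set by the spread of 3 birds per group. Text names all members, their nearest paralogs (some list genes are not reported here), list genes with an unadjusted p under 0.05, genes set beside a result, and the 5 named loci nearest in profile. TRIP13, SMC1B, HFM1 and the further genes of the closing observations were named after their values were seen. LOC names were matched to a RefSeq gene table of another assembly, bColLiv1.pat.W.v2, for 5409 of 14383 names, and no coordinate was taken from it. The members and lists were chosen with earlier results of these data known.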

Additional observations from a re-analysis of the deposited data

How the results depend on the processing

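No paired analysis was possible because the labels number the HP ovaries 1 to 3 and the LP ovaries 4 to 6, so that the groups share no number. Under another tool, scaling, filter, pseudocount or marker list, 100 recomputed values were taken as unchanged. Of the others, 4 counts moved by over 1.5 times, 1 value changed sign and 1 no longer passed. Unchanged meant a count within 1.5 times, or a fold change that kept its direction and side of the threshold. For a difference relative to germ cell markers it meant the direction only. Counts without overlap used the same CPM under every tool and scaling, so they could not move there. On the scale of the germ cell markers SYCP1 went to −0.22. HORMAD1, at 0.74, no longer passed its threshold, which an exact test of 3 against 3 cannot reach. Its groups also overlapped there through HP3 and LP6 (exact permutation p = 0.2). With limma on log2(FPKM + 1), 7 in place of 4 prophase genes had an unadjusted p under 0.05. Loci with an adjusted p under 0.05 numbered 407 with DESeq2, 6 with limma on log2(FPKM + 1) and 7 with log2(FPKM + 0.1), against 3 in edgeR, and the cause was not tested. Leaving out 1 ovary at a time, with the arm of 2 sharing the pooled spread, moved the log2 fold change of SYCP1 from −0.39 (without HP1) through −0.02 (without LP6) to 0.43 (without LP4), and that of HORMAD1 from 0.73 to 1.42 through 0.83, 0.87 and 0.92. Member counts ranged from 0 to 1 at an unadjusted p, from 0 to 1 with the fold limit and from 1 to 3 without overlap. The 3 came without LP5, when SYCP3 and MSH4 were also lower in HP without overlap. Prophase gene counts ranged from 1 to 6, from 0 to 2 and from 10 to 19, and counts over all loci from 0 to 7 (adjusted p), 1467 to 2574, 702 to 1058 and 6095 to 7922. The counts without overlap grow by construction, as fewer ovaries overlap less often. Relative to germ cell markers, SYCP1 ranged from −0.77 to 0.078 (without HP3, and 0.045 without HP2), SYCP2 from −0.092 (without LP6) to 0.56 (−0.013 without HP3), and DMC1 from −0.65 to 0.58 (0.26 without HP3), so these 3 kept no sign.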

Other observations

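The ovaries in which SYCP2 was high, HP2, HP3 and LP4, were also the 3 highest for FKBP6, TRIP13, SMC1B, RAD21, PDS5A and BRCA2, which makes 7 of the 54 tested prophase and cohesin genes (13.0%) with SYCP2 itself. Of the germ cell markers 2 of 10, DDX4 and DAZL, had these 3 ovaries on top, in any order, and the other 8 did not. DNAH5 of the oviduct and cilia list had them on top as well. Among all tested loci 1855 of 28274 (6.56%) had these 3 ovaries on top. The grouping was noticed in SYCP2, so it is a description with no test. DDX4, an RNA helicase of germ cells, had 47.4, 62.0 and 77.9 CPM in HP1, HP2 and HP3, against 54.5, 35.1 and 45.3 CPM in LP4, LP5 and LP6. DAZL, an RNA-binding protein of germ cells, had 72.2, 159 and 108 CPM in HP1, HP2 and HP3, against 141, 55.4 and 104 CPM in LP4, LP5 and LP6. SMC1B, which pairs with SMC3 in meiotic cohesin, was at 18.7 and 23.9 CPM in HP2 and HP3 and at 19.4 CPM in LP4, and at 14.1 CPM or less elsewhere.

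Other genes whose HP and LP ovaries did not overlap, none past an unadjusted p under 0.05 in edgeR's test, included SMC3, the SMC subunit that every cohesin shares (log2 fold change 0.43, adjusted p = 0.615), MLH3, a mismatch repair family protein that acts in crossing over (0.31, adjusted p = 0.619), MEIKIN, a kinetochore protein of meiosis I (0.27, adjusted p = 0.630), and MEI1, a break formation factor that was lower in HP (−0.31, adjusted p = 0.630). The MLH3 locus merges LOC102087214 and LOC110358715, was matched to that symbol only through the RefSeq gene table, and overlaps 4 other loci.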
